A study of Mus musculus with 24 samples.

Results

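The mitochondrial carriers of the SLC25 family, with the uncoupling proteins (Ucp genes) and both subunits of the mitochondrial pyruvate carrier (Mpc1 and Mpc2), were followed through feeding and fasting in mouse liver with and without hepatocyte p110α. Members were taken by name alone: a probe was kept if its gene name on the array was Slc25a with a number, Ucp1, Ucp2, Ucp3, Mpc1 or Mpc2 and if the authors' table of filtered values held it. Where several probes named a gene, the one with the highest mean signal across all 24 arrays stands for it. Of 113 probes with such a name, 93 were in the table, and they gave 48 members among 21652 genes with a probe there. The names Slc25a31, Slc25a41, Slc25a54 and Ucp1 had no probe in the table. Of the 48 members, 47 were tested, and 46 of these were well above background on every array. The exception among the tested members, Slc25a53, was well above background on 5 of 6 arrays of the LKO_Fed group and on all arrays of the other groups. Slc25a18, a glutamate carrier, was well above background on 0, 3, 4 and 2 of 6 arrays of the LWT_Fed, LWT_Fasted, LKO_Fed and LKO_Fasted groups and was not tested. No member entered the test through 1 group alone.

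Livers came from male mice aged 12 weeks, 1 array per mouse and 6 mice per group. The labels give the genotypes as p110aLWT and p110aLKO, shortened here to LWT and LKO. All mice carried floxed alleles of Pik3ca, the gene of p110α, a catalytic subunit of the phosphoinositide 3-kinase that the insulin receptor activates. LKO mice also carried 1 copy of a Cre recombinase transgene of the C57BL/6J strain under the albumin promoter, which acts in hepatocytes, and LWT mice were their littermates without Cre, so that the Cre transgene itself was present in LKO alone. Fed mice ate freely, fasted mice went 24 h without food, and all were killed at Zeitgeber time 16, in the dark phase. Deletion was limited to hepatocytes, and the other cells of the liver kept the gene.

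Carriers of this family span the inner mitochondrial membrane (a few lie in other membranes) and exchange metabolites, nucleotides and cofactors between the cytosol and the matrix. A fasting liver oxidises fatty acids, makes glucose from amino acids and lactate and exports ketone bodies, whereas a fed liver exports citrate from mitochondria to make fatty acids. Each of these routes needs a carrier: carnitine esters enter the matrix through Slc25a20, pyruvate through the pyruvate carrier, ornithine and glutamate through amino acid carriers, and citrate leaves through Slc25a1.

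Signals below are normalized log2 intensities, comparisons are log2 fold changes with their standard errors from limma, and a member passed a comparison if its p-value adjusted over all 32197 probes was at most 0.05. A value in parentheses after a range is the median of the 6 arrays. The number of arrays limits the precision, and p-values measure the spread between mice. The Pik3ca probe did not mark the genotype. Its log2 signal had medians of 11.88 in LWT_Fed, 12.32 in LWT_Fasted, 12.49 in LKO_Fed and 12.27 in LKO_Fasted, which made it higher in fed LKO (0.58, adjusted p = 0.00146) and gave a difference of -0.02 (adjusted p = 0.93) in fasted mice. Where this probe lies relative to the deleted exons was not examined, so LKO below means the arrays labelled LKO. In the tissue check, the mean log2 signal of 6 hepatocyte markers (Alb, Ttr, Apoa1, Apob, Cps1 and Serpina1a) spanned 17.20 to 17.42 over the arrays of all groups. Among them Ttr was lower with fasting (-0.17 in LWT, -0.37 in LKO) and lower in LKO (-0.21 in fed, -0.41 in fasted mice), Apob was higher with fasting in LWT (0.24) and Apoa1 was higher in fed LKO (0.28). Array 3 of LWT_Fed stood apart in several members and had the lowest weight of all arrays in the fit, 0.32, and array 4 of LKO_Fasted the next, 0.36. Arrays 1 and 2 of LKO_Fasted, which had stood apart from their group in earlier results of these data, were also left out together. RNA came from whole liver, in which fewer cells of a type and less RNA per cell cannot be told apart.

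Fasting moved more than 1 in 2 of the carriers. In LWT, 19 of 47 members were higher and 8 were lower in fasted than in fed mice, against 19.9% and 21.7% of all 21372 genes tested. In LKO, 20 were higher and 9 lower, where 19.6% and 21.9% of all genes were. The members' shares were 40.4% and 42.6% for higher signals and 17.0% and 19.1% for lower ones. A difference over 1.5-fold that also passed was found for 18 members in LWT, against 10.0% of genes, and for 21 in LKO, against 12.8%. Without array 3 of LWT_Fed, 26 members passed in LWT and 29 in LKO. Most of the fasting changes were common to both genotypes: 17 members rose in both, 6 fell in both and 14 passed in neither. These joint counts were not made for all genes, so the overlap cannot be called particular to the carriers. The median log2 fold change of the 47 members was 0.10 in LWT and 0.09 in LKO, and that of all genes -0.01 and -0.02, while the median absolute change was 0.27 and 0.39 for the members and 0.17 and 0.19 for all genes. Both fasting comparisons rest on separate mice.

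**Figure D1:**
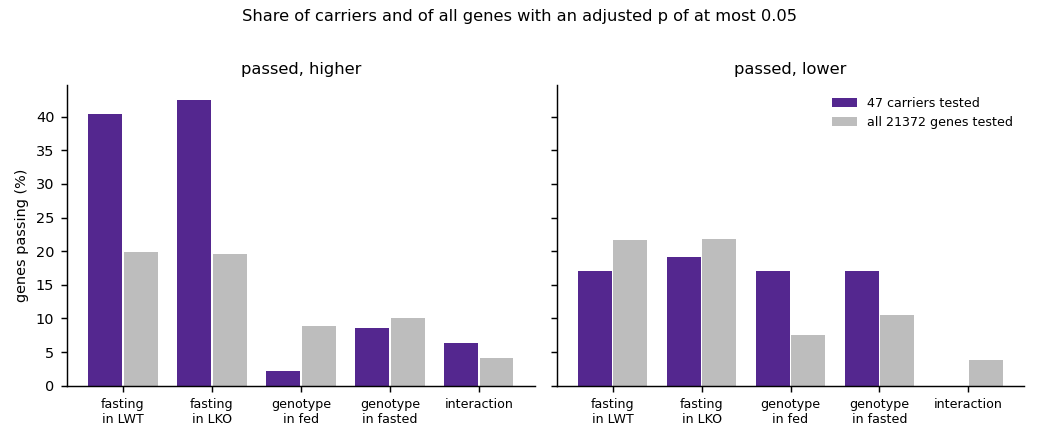
Percentage of the 47 carriers tested (purple) and of all 21372 genes tested (grey) that passed an adjusted p of at most 0.05, higher on the left and lower on the right, for each of the 5 comparisons. Carriers were higher with fasting in 40.4% (LWT) and 42.6% (LKO) of cases, where 19.9% and 19.6% of all genes were.

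Genotype moved fewer carriers. In fed mice, 1 member was higher in LKO and 8 were lower, where 8.81% and 7.60% of all genes were, and 0 members passed with a difference over 1.5-fold, against 3.86% of genes. By limma at an unadjusted p under 0.05, 2 members were higher, 15 lower and 1 was over 1.5-fold, against 15.0%, 15.2% and 4.15% of all genes. In fasted mice 4 members were higher and 8 lower in LKO (10.0% and 10.6% of genes), and 2 were over 1.5-fold (4.06% of genes). The interaction (the change with fasting in LKO less the change in LWT) passed for 3 members with a positive sign and for 0 with a negative sign, against 4.12% and 3.87% of genes. At an unadjusted p under 0.05, limma gave 10 members with a positive and 6 with a negative interaction, against 11.8% and 12.0% of all genes. A passing interaction over 1.5-fold was found for 1 member, against 3.11% of genes. The 8 carriers lower in fed LKO and the 8 lower in fasted LKO were each 17.0% of members.

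**Figure D2:**
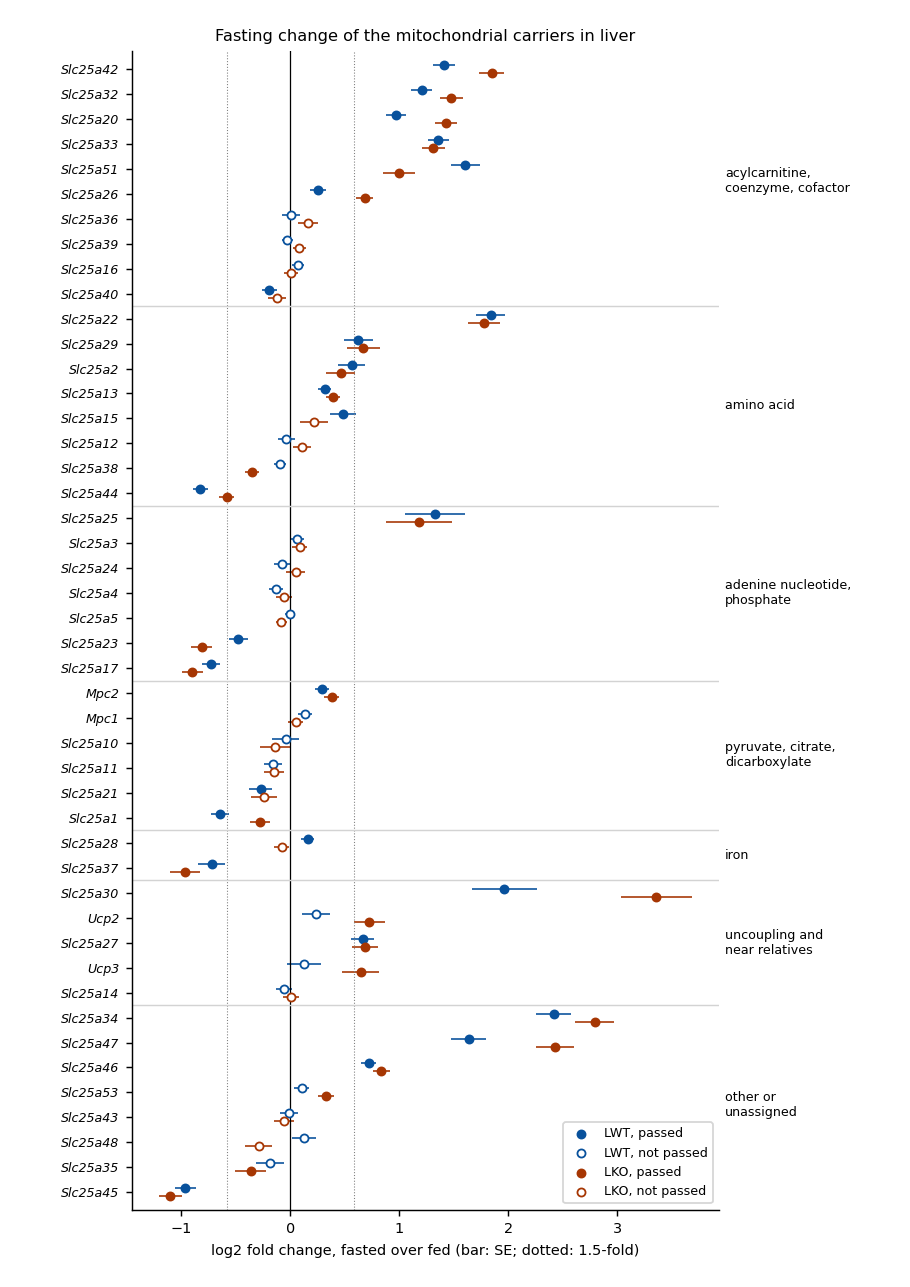
Log2 fold change of 46 of the 47 tested carriers, fasted over fed, in LWT (blue) and LKO (brown), with bars of 1 standard error and carriers grouped by substrate. Filled points passed and open points did not; Slc25a30 in LKO (3.36) lies farthest to the right, followed by Slc25a34 and Slc25a47 in LKO (2.79 and 2.43), and Slc25a45 (-0.96 and -1.10) farthest to the left.

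Promoters are shown for 5 members that the results turn on: Slc25a20 and Slc25a47, whose interaction passed on all 24 arrays but not on leaving out any of 13 or any of 15 of them, and the carriers Slc25a25, Slc25a33 and Slc25a1, in whose promoters a searched motif was found and which moved with fasting. They are the 250 bases before a transcription start on the gene's strand, in RefSeq's annotation of GRCm38.p6, and capitals mark the motif. The windows are chr9:108661886-108662135 (plus strand) for Slc25a20, chr12:108850879-108851128 (plus) for Slc25a47, chr2:32424067-32424316 (minus) for 1 of 3 annotated starts of Slc25a25, chr4:149774268-149774517 (minus) for Slc25a33 and chr16:17928220-17928469 (minus) for Slc25a1.
Slc25a20: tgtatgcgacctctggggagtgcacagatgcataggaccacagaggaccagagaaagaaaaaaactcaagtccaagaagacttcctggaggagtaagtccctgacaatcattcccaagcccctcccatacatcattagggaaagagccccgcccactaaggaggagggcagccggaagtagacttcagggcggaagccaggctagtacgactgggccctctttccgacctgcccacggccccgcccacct
Slc25a47: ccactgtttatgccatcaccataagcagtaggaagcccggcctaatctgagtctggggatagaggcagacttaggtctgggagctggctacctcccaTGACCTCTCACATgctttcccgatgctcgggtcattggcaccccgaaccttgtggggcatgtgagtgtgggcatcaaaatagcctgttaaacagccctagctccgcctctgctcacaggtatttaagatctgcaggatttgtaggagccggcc
Slc25a25: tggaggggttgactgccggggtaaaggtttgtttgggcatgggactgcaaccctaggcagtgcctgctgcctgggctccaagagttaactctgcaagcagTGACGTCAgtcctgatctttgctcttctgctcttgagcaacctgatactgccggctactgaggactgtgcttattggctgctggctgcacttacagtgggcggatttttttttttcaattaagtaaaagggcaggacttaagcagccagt
Slc25a33: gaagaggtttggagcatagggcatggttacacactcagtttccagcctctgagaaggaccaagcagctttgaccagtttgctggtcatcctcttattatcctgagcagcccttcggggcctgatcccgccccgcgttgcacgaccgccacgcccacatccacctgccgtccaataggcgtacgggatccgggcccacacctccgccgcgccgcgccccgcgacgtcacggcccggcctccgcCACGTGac
Slc25a1: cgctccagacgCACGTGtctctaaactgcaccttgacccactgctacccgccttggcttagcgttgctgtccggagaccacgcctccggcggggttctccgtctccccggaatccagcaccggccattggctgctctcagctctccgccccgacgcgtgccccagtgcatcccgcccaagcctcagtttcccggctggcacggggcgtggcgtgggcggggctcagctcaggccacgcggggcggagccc

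Promoters in the table numbered 49 for 38 of the 48 members. Motifs were searched on both strands in these 250 bases. The cyclic AMP element TGACGTCA was in 2 member promoters, of Slc25a25 and Slc25a36, and in 1.55% of all 32851 promoters, and the element in Slc25a25 begins 150 bases before the start. The E-box CACGTG was in 7 promoters of 6 members, Slc25a1, Slc25a13, Slc25a14, Slc25a15, Slc25a33 and Slc25a36, and in 6.02% of all promoters. It begins 8 bases before the start of Slc25a33 and 239 bases before that of Slc25a1, a carrier that rose and a carrier that fell with fasting. The windows of Slc25a14 with an E-box overlap, so the same letters may be counted more than once. Member promoters had a median GC content of 57.6%, against 52.4% for all promoters, and its part in these shares was not tested. The FOXO element TGTTTAC (3.17% of all promoters), the ERR element TCAAGGTCA (0.387%) and the exact PPAR direct repeat, AGGTCA given again after 1 base of any kind (0.0335%), were in 0 member promoters. With up to 2 letters different, a form searched after the exact repeat had been found in no member, the repeat was in the promoters of Slc25a45, Slc25a47 and Ucp3 and in 3.24% of all promoters. In Slc25a47 it begins 153 bases before the start and has 2 letters different, and Slc25a20 held none of these letters in its window. These matches describe letters and were not tested as binding sites.

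Carriers of acylcarnitines, coenzymes and cofactors held many of the large increases. Of 11 members, 6 rose and 1 fell with fasting in each genotype, and the median log2 fold change was 0.25 in LWT and 0.68 in LKO. Among all genes, 19.9% rose and 21.7% fell in LWT, and 19.6% and 21.9% in LKO. Slc25a20, the carnitine-acylcarnitine carrier, has its probe at chr9:108585399-108585458 (mm9, the build of all probe positions here). Its signal ran from 11.27 to 11.76 (11.36) in LWT_Fed, from 12.20 to 12.45 (12.32) in LWT_Fasted, from 10.64 to 11.21 (10.97) in LKO_Fed and from 11.84 to 12.49 (12.41) in LKO_Fasted. Fasted arrays stood above fed arrays in both genotypes, and all fed LKO arrays lay below all fed LWT arrays. Slc25a20 rose by 0.97 ± 0.09 (SE) in LWT (adjusted p = 2.54e-08) and by 1.43 ± 0.10 in LKO (adjusted p = 2.77e-10). It was lower in fed LKO (-0.41 ± 0.09, adjusted p = 0.00436), while in fasted mice the difference was 0.05 ± 0.10 (adjusted p = 0.787), and the interaction was 0.46 ± 0.14 (adjusted p = 0.0419). Leaving out any of 13 arrays in turn ended the interaction call, with adjusted p between 0.0531 and 0.0904 and an interaction between 0.37 and 0.48, and without arrays 1 and 2 of LKO_Fasted it was 0.47 (adjusted p = 0.0539). Only 1 probe of this gene was in the table.

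Slc25a42, which brings coenzyme A into the matrix, was among the members with large changes in both genotypes. Signals ran from 12.80 to 13.17 (12.91) in LWT_Fed, from 14.03 to 14.63 (14.37) in LWT_Fasted, from 12.76 to 13.28 (13.01) in LKO_Fed and from 14.64 to 15.04 (14.77) in LKO_Fasted. Fed and fasted arrays were separate, and every fasted LKO array lay above every fasted LWT array. The increase was 1.41 ± 0.10 in LWT (adjusted p = 6.29e-10), and for LKO it was 1.85 ± 0.11 (adjusted p = 4.35e-11), and the genotype difference in fasted mice was 0.47 ± 0.11 (adjusted p = 0.00438), against 0.04 ± 0.11 (adjusted p = 0.864) in fed mice. The interaction of 0.44 ± 0.15 did not pass (adjusted p = 0.0844). Of its 2 other probes, both rose in both genotypes and 1 was also higher in fasted LKO (0.74, adjusted p = 0.0015).

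Slc25a51, the carrier of NAD into mitochondria, rose with fasting in both genotypes. Signals of Slc25a51 were from 12.47 to 13.06 (12.74) in LWT_Fed, from 13.99 to 14.55 (14.42) in LWT_Fasted, from 12.73 to 13.30 (12.96) in LKO_Fed and from 13.73 to 14.63 (13.94) in LKO_Fasted. It rose by 1.60 ± 0.13 in LWT (adjusted p = 3.80e-09) and by 0.996 ± 0.15 in LKO (adjusted p = 9.97e-06), without overlap of fed and fasted arrays. The interaction was -0.61 ± 0.20 (adjusted p = 0.063) and did not pass. A second probe gave 2.02 and 1.52 for the fasting changes and an interaction of -0.50 (adjusted p = 0.177), so the change in LWT was the larger on both probes without passing on either.

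Slc25a32, a carrier of folate and FAD, and Slc25a33, a carrier of pyrimidine nucleotides, rose to a similar extent. Slc25a32 signal ran from 8.72 to 8.98 (8.87) in LWT_Fed, from 9.82 to 10.35 (10.10) in LWT_Fasted, from 8.56 to 8.95 (8.83) in LKO_Fed and from 10.08 to 10.62 (10.33) in LKO_Fasted, and the changes were 1.21 ± 0.10 in LWT (adjusted p = 2.34e-09) with 1.48 ± 0.11 for LKO (adjusted p = 4.04e-10). Slc25a33 signal ran from 10.74 to 11.29 (11.06) in LWT_Fed, from 12.33 to 12.69 (12.46) in LWT_Fasted, from 11.13 to 11.69 (11.48) in LKO_Fed and from 12.51 to 13.00 (12.81) in LKO_Fasted, and the changes were 1.36 ± 0.10 (adjusted p = 3.53e-10) and 1.31 ± 0.11 (adjusted p = 2.03e-09). Fed and fasted arrays of either gene did not overlap in either genotype. Slc25a33 was the only member that passed as higher in fed LKO (0.34 ± 0.10, adjusted p = 0.0232), a call that ended without array 5 of LKO_Fed (0.28), array 2 of LWT_Fed (0.30) or array 5 of LWT_Fed (0.35), at adjusted p between 0.0526 and 0.0649. It also ended with a replicate block (0.29, adjusted p = 0.0509), with the processed signal at the 75th percentile (0.28, adjusted p = 0.081) and with only the groups compared (0.32, adjusted p = 0.0639). A second, dimmer probe of Slc25a32 rose by 0.62 and 0.57.

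Slc25a26, which imports the methyl donor S-adenosylmethionine, rose in both genotypes and more so in LKO. Signals ran from 8.62 to 9.02 (8.85) in LWT_Fed, from 8.93 to 9.31 (9.13) in LWT_Fasted, from 8.60 to 8.85 (8.71) in LKO_Fed and from 9.27 to 9.53 (9.35) in LKO_Fasted. Fed and fasted arrays overlapped in LWT and were separate in LKO. The increase was 0.25 ± 0.07 in LWT (adjusted p = 0.00857), and for LKO it was 0.68 ± 0.08 (adjusted p = 6.90e-07), and the interaction of 0.43 ± 0.11 passed (adjusted p = 0.0214) and did so without any single array. In fasted mice it was higher in LKO by 0.27 ± 0.08 (adjusted p = 0.0187), a call that ended with its probes averaged (0.10, adjusted p = 0.157) and with only the groups compared (0.28, adjusted p = 0.0622). Its other probes gave 0.15 and -0.12 there, and neither passed. A second probe gave an interaction of 0.30 (adjusted p = 0.0428) and the other -0.04 (adjusted p = 0.84), so the 3 probes of this gene did not all share it.

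Among the remaining carriers of this group, Slc25a16, linked to coenzyme A, was lower in LKO by -0.34 (adjusted p = 0.000633) in fed and -0.40 (adjusted p = 0.000148) in fasted mice. Its second probe differed by -0.03 and 0.01, so the difference was on 1 of 2 probes. Slc25a40 was lower with fasting in LWT (-0.19, adjusted p = 0.0364), a call that ended on leaving out any of 7 arrays, with values between -0.21 and -0.15. Slc25a36, a pyrimidine nucleotide carrier, and Slc25a39, a glutathione carrier, passed in no comparison, with log2 fold changes between -0.16 and 0.16 and between -0.03 and 0.11. Of 2 other Slc25a36 probes, 1 was lower with fasting in LKO (-0.31, adjusted p = 0.0163) and higher in fed LKO than in fed LWT (0.34, adjusted p = 0.0162).

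**Figure D3:**
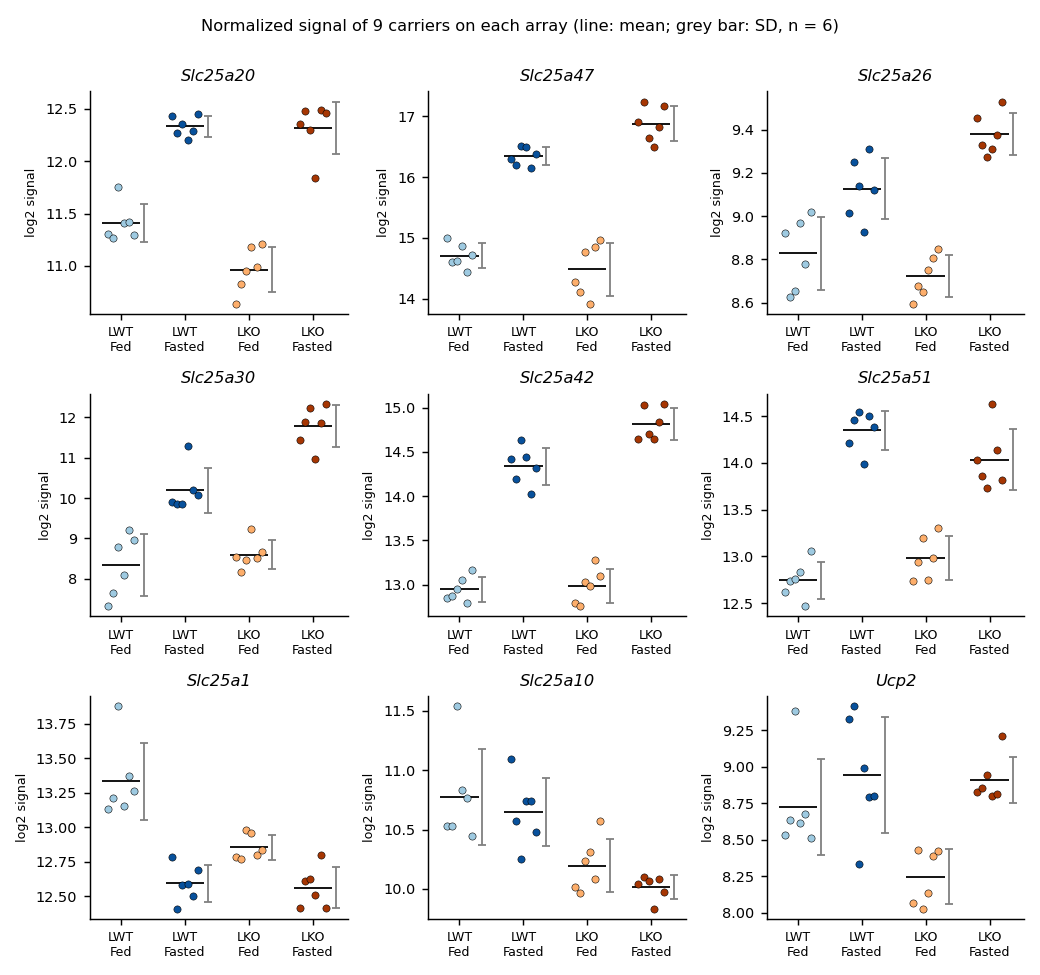
Normalized log2 signal of 9 carriers on each of the 24 arrays (1 point per mouse) by group, with the group mean as a black line and the SD (n = 6) as a grey bar; the vertical axes differ and do not start at 0. For Slc25a20 the fed LKO arrays (highest 11.21) lie below the fed LWT arrays (lowest 11.27), and for Slc25a42 the fasted LKO arrays (lowest 14.64) lie above the fasted LWT arrays (highest 14.63).

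Amino acid carriers rose more often than they fell. Of 8 members tested, 5 rose and 1 fell in LWT, and 4 rose and 2 fell in LKO. For all genes the shares were 19.9% higher and 21.7% lower in LWT, and 19.6% and 21.9% in LKO. Slc25a22, a glutamate carrier, led the amino acid carriers, with its probe at chr7:148616089-148616148. Signals of Slc25a22 were from 11.04 to 12.15 (11.34) in LWT_Fed, from 12.94 to 13.46 (13.16) in LWT_Fasted, from 11.21 to 11.79 (11.38) in LKO_Fed and from 12.94 to 14.00 (13.25) in LKO_Fasted. The lowest fasted array stood above the highest fed array in each genotype. It rose by 1.84 ± 0.13 in LWT (adjusted p = 5.02e-10) and by 1.78 ± 0.15 in LKO (adjusted p = 2.87e-09), with genotype differences of 0.14 ± 0.14 in fed and 0.08 ± 0.14 in fasted mice (adjusted p = 0.528 and 0.762). Its 2 other probes rose by 1.55 to 1.69.

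Slc25a29, a carrier of basic amino acids, ran from 7.47 to 7.97 (7.63) in LWT_Fed, from 8.01 to 8.64 (8.23) in LWT_Fasted, from 7.14 to 7.89 (7.72) in LKO_Fed and from 7.86 to 8.86 (8.32) in LKO_Fasted. It rose by 0.62 ± 0.13 in LWT (adjusted p = 0.000713) and by 0.67 ± 0.15 in LKO (adjusted p = 0.000959), and fed and fasted arrays overlapped in LKO alone. Both ornithine carriers of the urea cycle were measured: Slc25a2 rose in LWT (0.56, adjusted p = 0.000869) and LKO (0.46, adjusted p = 0.00994), and Slc25a15 passed in LWT (0.48, adjusted p = 0.00248). In LKO the mean signal of Slc25a15 was 9.42 in fed and 9.71 in fasted mice without passing, and its interaction did not pass. The aspartate-glutamate carriers have known tissues of expression: Slc25a13 (citrin, the form of liver) rose by 0.31 (adjusted p = 0.000171) and 0.39 (adjusted p = 5.08e-05), and Slc25a12 (aralar, the form of muscle and brain) passed in no comparison, with values between -0.19 and 0.14.

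Slc25a44, a carrier of branched-chain amino acids, was the amino acid carrier that fell in both genotypes. Slc25a44 signal ran from 9.48 to 9.91 (9.68) in LWT_Fed, from 8.66 to 8.90 (8.77) in LWT_Fasted, from 9.08 to 9.34 (9.24) in LKO_Fed and from 8.56 to 8.77 (8.60) in LKO_Fasted. Fasted arrays lay below fed arrays in each genotype, and fed LKO arrays lay below fed LWT arrays. The decrease was -0.83 ± 0.06 in LWT (adjusted p = 1.94e-09), and for LKO it was -0.59 ± 0.07 (adjusted p = 9.08e-07), and the difference in fed mice was -0.43 ± 0.07 (adjusted p = 0.000221). A second probe of this gene differed by -0.02 with fasting in LWT, by -0.20 in LKO and by -0.03 between genotypes in fed mice, none of which passed, so the fall was on 1 of 2 probes. Slc25a38, a glycine carrier needed for haem synthesis, fell in LKO (-0.35, adjusted p = 0.000113) and was lower in fasted LKO than in fasted LWT (-0.24, adjusted p = 0.00807). In LWT its mean signal was 10.24 in fed and 10.07 in fasted mice without passing, and its interaction did not pass.

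Some carriers of adenine nucleotides and phosphate moved with fasting. Of 7 members, Slc25a25 rose and Slc25a17 and Slc25a23 fell in each genotype. With 19.9% of all genes higher and 21.7% lower in LWT, and 19.6% and 21.9% in LKO, these counts do not set the group apart. Slc25a25 and Slc25a23 are both calcium-regulated exchangers of ATP-Mg for phosphate. Slc25a25 signal ran from 11.98 to 12.84 (12.46) in LWT_Fed, from 12.27 to 14.35 (13.82) in LWT_Fasted, from 12.60 to 13.73 (13.00) in LKO_Fed and from 13.63 to 15.11 (14.30) in LKO_Fasted. Fed and fasted arrays overlapped in both genotypes, and its SE was among the largest of the family. It rose by 1.33 ± 0.27 in LWT (adjusted p = 0.000452) and by 1.18 ± 0.30 in LKO (adjusted p = 0.00324), and was 0.77 ± 0.28 higher in fed LKO without passing (adjusted p = 0.065). Its 3 other probes rose by 1.03 to 1.34, and on 1 of them the fed difference passed (0.79, adjusted p = 0.044).

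Slc25a23 signal ran from 10.32 to 11.03 (10.47) in LWT_Fed, from 9.63 to 10.17 (9.94) in LWT_Fasted, from 10.28 to 10.51 (10.36) in LKO_Fed and from 9.35 to 9.77 (9.52) in LKO_Fasted. It fell by -0.48 ± 0.09 in LWT (adjusted p = 0.000174) and by -0.82 ± 0.10 in LKO (adjusted p = 7.42e-07), with no overlap of fed and fasted arrays, and was lower in fasted LKO than in fasted LWT (-0.42 ± 0.10, adjusted p = 0.00395). The interaction was -0.34 ± 0.13 (adjusted p = 0.125) on this probe, -0.66 (adjusted p = 0.0459) on a second, and 0.00 (adjusted p = 0.99) on the last, which passed in no comparison. Their relative Slc25a24 passed in no comparison, with values between -0.18 and 0.12.

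Slc25a17, a carrier of the peroxisomal membrane that exchanges coenzyme A and nucleotides, ran from 12.48 to 12.95 (12.85) in LWT_Fed, from 12.03 to 12.32 (12.10) in LWT_Fasted, from 12.14 to 12.90 (12.67) in LKO_Fed and from 11.66 to 11.90 (11.75) in LKO_Fasted. It fell by -0.73 ± 0.08 in LWT (adjusted p = 4.69e-07) and by -0.90 ± 0.09 in LKO (adjusted p = 8.19e-08), and fed and fasted arrays were separate. Fasted LKO arrays all lay below fasted LWT arrays (-0.35 ± 0.09, adjusted p = 0.00876). The carriers that serve oxidative phosphorylation itself moved little. The phosphate carrier Slc25a3 and the ADP/ATP carrier Slc25a4 passed in no comparison, with values between -0.00 and 0.09 and between -0.16 and 0.07. A second Slc25a3 probe rose with fasting in LKO (0.20, adjusted p = 0.0277). The ADP/ATP carrier Slc25a5 was lower in fasted LKO than in fasted LWT (-0.22, adjusted p = 0.00401).

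Carriers of pyruvate, citrate and dicarboxylates changed in both directions. Of 6 members, 1 rose and 2 fell in LWT, and 1 rose and 1 fell in LKO. As 19.9% of all genes rose and 21.7% fell in LWT, and 19.6% and 21.9% in LKO, these counts do not set the group apart. Slc25a1, the citrate carrier that supplies acetyl units for fatty acid synthesis, has its probe at chr16:17925661-17925720. Its signal ran from 13.13 to 13.88 (13.24) in LWT_Fed, from 12.41 to 12.79 (12.59) in LWT_Fasted, from 12.77 to 12.98 (12.81) in LKO_Fed and from 12.41 to 12.80 (12.56) in LKO_Fasted. The lowest fed LWT array, at 13.13, stood above every array of the other groups, the highest of which was a fed LKO array at 12.98. It fell by -0.65 ± 0.08 in LWT (adjusted p = 1.69e-06) and by -0.28 ± 0.09 in LKO (adjusted p = 0.0159), and was lower in fed LKO (-0.39 ± 0.08, adjusted p = 0.00316). In fasted mice the difference was -0.02 ± 0.09 (adjusted p = 0.888), and the interaction of 0.36 ± 0.12 did not pass (adjusted p = 0.0726). Without arrays 1 and 2 of LKO_Fasted the decrease in LKO was -0.24 (adjusted p = 0.0784). A second probe fell by -0.71 and -0.57 and was lower in fed LKO by -0.36 (adjusted p = 0.0031).

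Slc25a10, the dicarboxylate carrier that passes malate and succinate in exchange for phosphate, passed between genotypes in both feeding states. It did not pass with fasting in either genotype. It was lower in fed LKO (-0.48, adjusted p = 0.0151) and in fasted LKO (-0.57, adjusted p = 0.00499). Slc25a10 signal ran from 10.45 to 11.53 (10.64) in LWT_Fed, from 10.26 to 11.09 (10.65) in LWT_Fasted, from 9.96 to 10.57 (10.16) in LKO_Fed and from 9.84 to 10.10 (10.06) in LKO_Fasted, so that the fasted groups did not overlap and array 3 of LWT_Fed was the highest of all. The fed call ended without array 5 of LWT_Fed (-0.46, adjusted p = 0.0569). Only 1 probe of Slc25a10 was in the authors' table. Of the pyruvate carrier, Mpc2 rose by 0.29 (adjusted p = 0.000727) and 0.38 (adjusted p = 0.00013), and the probe of Mpc1 passed in no comparison, with values between -0.18 and 0.13. Of its 2 other probes, 1 was higher with fasting in LWT (0.16, adjusted p = 0.0439) and lower in fasted LKO than in fasted LWT (-0.25, adjusted p = 0.0108), and the dimmer was higher with fasting in LKO (0.34, adjusted p = 0.0113). Slc25a21, a carrier of oxodicarboxylates, was lower with fasting in LWT (-0.27, adjusted p = 0.0456), a call that ended on leaving out any of 13 arrays (-0.30 to -0.22). Slc25a11, the oxoglutarate-malate carrier, passed in no comparison, with values between -0.16 and 0.01, and its second probe fell with fasting in LKO (-0.31, adjusted p = 0.00696).

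Of the iron carriers, Slc25a37 (mitoferrin 1 by its common name) fell and Slc25a28 (its relative) moved little. Slc25a37 signal ran from 11.85 to 12.30 (12.06) in LWT_Fed, from 10.94 to 11.83 (11.19) in LWT_Fasted, from 11.85 to 12.41 (12.03) in LKO_Fed and from 10.88 to 11.46 (11.17) in LKO_Fasted, and fed and fasted arrays did not overlap. It fell by -0.72 ± 0.13 in LWT (adjusted p = 8.94e-05) and by -0.97 ± 0.14 in LKO (adjusted p = 8.92e-06). Of its 2 other probes, 1 fell in both genotypes (-0.39 and -0.32) and 1 passed in neither (0.03 and -0.72), and with all its probes averaged the change in LWT was -0.36 (adjusted p = 0.11). Slc25a37 is best known from red cell precursors. Of 5 erythroid markers 4 were measured, and Alas2, the haem synthesis enzyme of those cells, was lower with fasting in LWT (-0.46, adjusted p = 0.0199) and LKO (-0.50, adjusted p = 0.0237), while the other 3 did not pass. Alas2 was also lower in LKO, by -0.80 in fed (adjusted p = 0.00167) and -0.83 in fasted mice (adjusted p = 0.00128), where Slc25a37 differed by 0.09 and -0.15 without passing. Hba-a1, Hbb-b1 and Slc4a1 did not pass there, with -0.31, -0.37 and -0.13 in fed mice and 0.50, 0.38 and 0.15 in fasted mice. With fasting they changed by -0.50, -0.51 and -0.35 in LWT and by 0.31, 0.25 and -0.07 in LKO. Alas2 therefore does not stand for the 4 markers. The mean log2 signal of these 4 ran from 11.93 to 12.57 in LWT_Fed, 11.10 to 12.48 in LWT_Fasted, 11.49 to 13.18 in LKO_Fed and 11.40 to 12.41 in LKO_Fasted; its part in the fall of Slc25a37 was not tested. Slc25a28 was higher with fasting in LWT (0.16, adjusted p = 0.0448), a call that ended on leaving out any of 10 arrays (0.12 to 0.17), and was lower in fasted LKO (-0.22, adjusted p = 0.0239), a call that ended without array 1 or array 2 of LKO_Fasted (-0.19 and -0.18).

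Uncoupling proteins let protons or anions cross the inner membrane, and their near relatives are named for sequence likeness. Slc25a30 showed the largest change of the family in LKO and the largest genotype difference in fasted mice, with its probe at chr14:76161603-76161662. Its signal ran from 7.33 to 9.21 (8.44) in LWT_Fed, from 9.85 to 11.28 (9.98) in LWT_Fasted, from 8.18 to 9.23 (8.53) in LKO_Fed and from 10.95 to 12.33 (11.88) in LKO_Fasted. Fed and fasted arrays did not overlap in either genotype, and fasted LKO arrays lay above all fasted LWT arrays but array 4 of LWT_Fasted, at 11.28, where the other 5 reached 10.20 at most. It rose by 1.96 ± 0.30 in LWT (adjusted p = 1.61e-05) and by 3.36 ± 0.33 in LKO (adjusted p = 3.48e-08), and was 1.72 ± 0.32 higher in fasted LKO (adjusted p = 0.000668), against 0.32 ± 0.30 in fed mice (adjusted p = 0.521). The interaction of 1.40 ± 0.44 did not pass on this probe (adjusted p = 0.0576). It passed on 2 of the 3 other probes, at 1.24 (adjusted p = 0.0382) and 0.86 (adjusted p = 0.00089), and was 0.67 (adjusted p = 0.26) on the remaining one. All 4 probes rose in both genotypes.

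Ucp2 and Ucp3 had a like pattern. Ucp2 signal ran from 8.51 to 9.38 (8.63) in LWT_Fed, from 8.33 to 9.41 (8.90) in LWT_Fasted, from 8.03 to 8.43 (8.26) in LKO_Fed and from 8.80 to 9.21 (8.84) in LKO_Fasted. Ucp3 signal ran from 8.12 to 9.14 (8.38) in LWT_Fed, from 7.87 to 9.19 (8.57) in LWT_Fasted, from 7.72 to 8.08 (7.92) in LKO_Fed and from 8.11 to 8.95 (8.47) in LKO_Fasted. For both genes the fed LKO arrays lay below all fed LWT arrays, and fasted arrays stood above fed arrays in LKO and overlapped in LWT. Ucp2 rose in LKO by 0.73 ± 0.14 (adjusted p = 0.000285) and Ucp3 by 0.65 ± 0.17 (adjusted p = 0.00383), against 0.23 ± 0.13 and 0.12 ± 0.15 in LWT (adjusted p = 0.157 and 0.56). The interactions of 0.49 ± 0.19 (adjusted p = 0.122) and 0.52 ± 0.23 (adjusted p = 0.171) did not pass, so a difference of the fasting changes between genotypes was not shown. In fed mice Ucp2 was lower in LKO by -0.42 ± 0.13 (adjusted p = 0.0331) and Ucp3 by -0.48 ± 0.16 (adjusted p = 0.0426). Those calls were fragile: leaving out any of 7 arrays ended that of Ucp2 (adjusted p up to 0.0788) and any of 9 arrays that of Ucp3 (up to 0.103). A second probe of Ucp2 gave -0.68 in fed mice (adjusted p = 0.0022). Array 3 of LWT_Fed was the highest fed array for both, at 9.38 and 9.14, and both fed calls were kept without it. Ucp3 is best known from skeletal muscle; of 5 muscle markers only 2 passed the filter on dim probes, and their mean log2 signal stayed between 6.39 and 6.67 on all arrays.

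Slc25a27 rose in each genotype. Slc25a27 signal ran from 6.64 to 6.93 (6.74) in LWT_Fed, from 7.24 to 7.78 (7.45) in LWT_Fasted, from 6.73 to 7.40 (6.96) in LKO_Fed and from 7.46 to 8.25 (7.66) in LKO_Fasted, and it changed by 0.66 ± 0.11 in LWT (adjusted p = 3.29e-05) and by 0.69 ± 0.12 in LKO (adjusted p = 7.16e-05). Within each genotype all fasted arrays lay above the fed ones. Slc25a14 passed in no comparison, with values between -0.06 and 0.06.

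**Figure D4:**
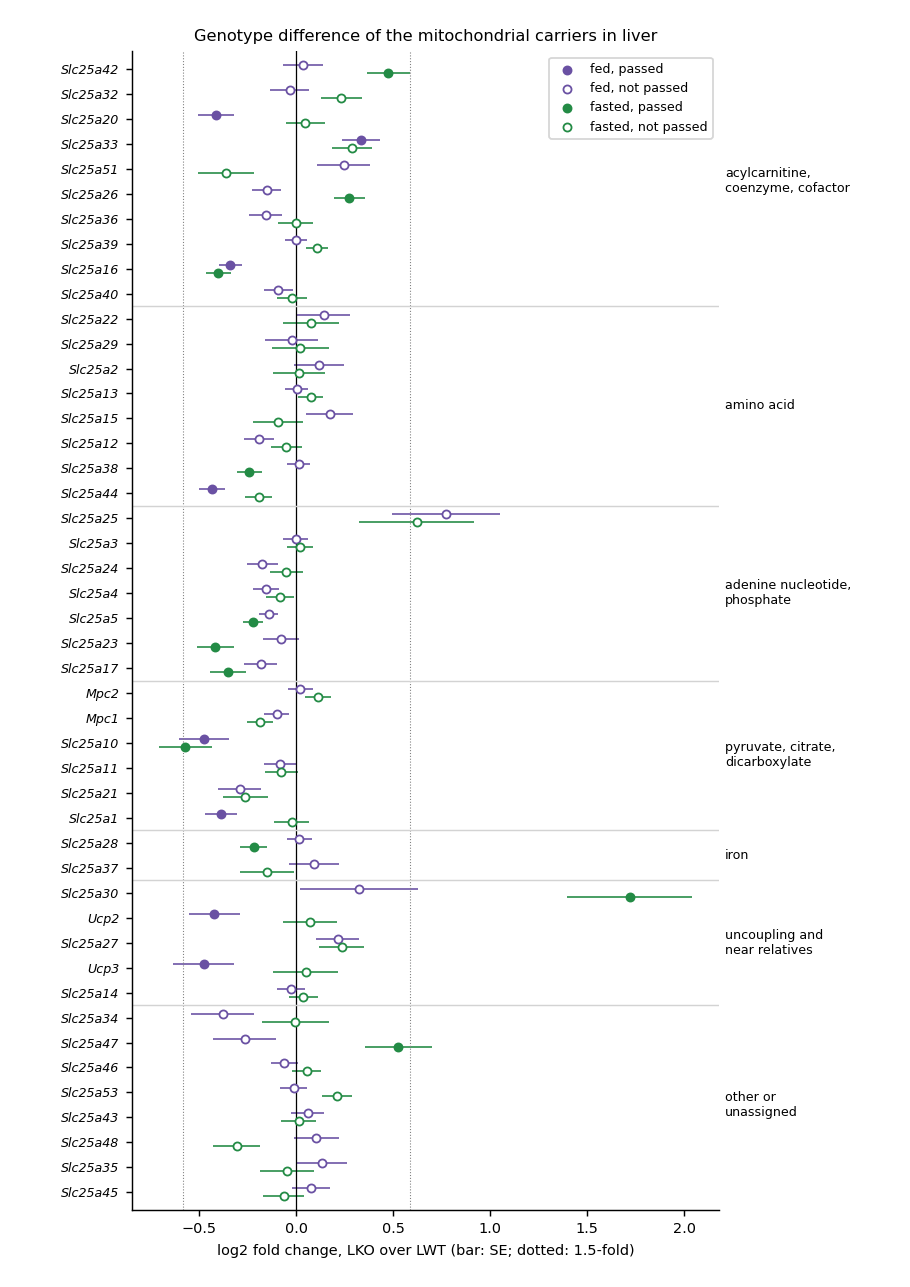
Log2 fold change of 46 of the 47 tested carriers, LKO over LWT, in fed (violet) and fasted mice (green), with bars of 1 standard error and carriers grouped by substrate; filled points passed. Slc25a30 in fasted mice (1.72) lies farthest from 0, and Slc25a10 and Slc25a16 are filled on the left in both states.

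Carriers with other or no settled substrates included large increases. Of 8 members, 3 rose and 1 fell in LWT, and 4 rose and 2 fell in LKO. All genes rose in 19.9% and fell in 21.7% of cases in LWT, and in 19.6% and 21.9% in LKO. Slc25a47, a carrier found mainly in liver, has its probe at chr12:110094661-110094720. Its signal ran from 14.44 to 15.00 (14.66) in LWT_Fed, from 16.15 to 16.52 (16.34) in LWT_Fasted, from 13.92 to 14.96 (14.52) in LKO_Fed and from 16.50 to 17.24 (16.86) in LKO_Fasted. Fasted arrays stood more than 1 log2 unit above fed arrays in each genotype, and the fasted groups overlapped narrowly, the highest LWT array being at 16.52 and the lowest LKO array at 16.50. It rose by 1.64 ± 0.16 in LWT (adjusted p = 4.12e-08) and by 2.43 ± 0.18 in LKO (adjusted p = 4.16e-10), and the interaction was 0.79 ± 0.24 (adjusted p = 0.0444). In fasted mice it was 0.53 ± 0.17 higher in LKO (adjusted p = 0.0353), against -0.27 ± 0.16 in fed mice (adjusted p = 0.291). The interaction call ended on leaving out any of 15 arrays (0.65 to 0.83, adjusted p between 0.0503 and 0.089) and without arrays 1 and 2 of LKO_Fasted together (0.71, adjusted p = 0.0775). The fasted difference ended on leaving out any of 6 arrays (0.45 to 0.56) and without those 2 arrays together (0.45, adjusted p = 0.124). Only 1 probe of this gene was in the table.

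Slc25a34 had the largest increase of the family in LWT. Signals ran from 8.36 to 8.90 (8.54) in LWT_Fed, from 10.73 to 11.56 (11.00) in LWT_Fasted, from 7.77 to 8.93 (8.23) in LKO_Fed and from 10.76 to 11.19 (11.13) in LKO_Fasted, with fasted arrays far above fed arrays. It rose by 2.42 ± 0.16 in LWT (adjusted p = 1.47e-10) and by 2.79 ± 0.18 in LKO (adjusted p = 6.05e-11), and genotype differences were -0.38 ± 0.16 (adjusted p = 0.122) and -0.00 ± 0.17 (adjusted p = 0.989). A second, dimmer probe rose by 0.62 and 0.56. Slc25a46, a protein of the outer membrane that acts in mitochondrial shape, ran from 11.49 to 11.97 (11.89) in LWT_Fed, from 12.40 to 12.86 (12.64) in LWT_Fasted, from 11.64 to 12.05 (11.84) in LKO_Fed and from 12.56 to 12.88 (12.65) in LKO_Fasted. It rose by 0.72 ± 0.07 (adjusted p = 3.72e-08) and 0.83 ± 0.08 (adjusted p = 1.35e-08), without overlap of fed and fasted arrays. Its second probe rose as well, by 0.47 and 0.68.

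Slc25a45 was the member with the largest decrease in each genotype. Signals of Slc25a45 were from 11.45 to 11.78 (11.66) in LWT_Fed, from 10.49 to 10.97 (10.73) in LWT_Fasted, from 11.55 to 11.99 (11.73) in LKO_Fed and from 10.24 to 10.87 (10.69) in LKO_Fasted, and no fasted array reached the fed range. It fell by -0.96 ± 0.10 in LWT (adjusted p = 5.66e-08) and by -1.10 ± 0.11 in LKO (adjusted p = 2.55e-08), and a second probe fell by -0.90 and -1.16. The remaining members of the group moved less. Slc25a53 rose in LKO (0.33, adjusted p = 0.00165). In LWT its mean signal was 6.01 in fed and 6.12 in fasted mice without passing, and its interaction did not pass. Slc25a35 was lower with fasting in LKO (-0.36, adjusted p = 0.0454), a call that ended on leaving out any of 16 arrays (-0.37 to -0.24). Both dimmer probes of Slc25a35 fell in each genotype, by -0.47 to -0.84. Slc25a43 and Slc25a48 passed in no comparison, with values between -0.06 and 0.06 and between -0.41 and 0.12.

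**Figure D5:**
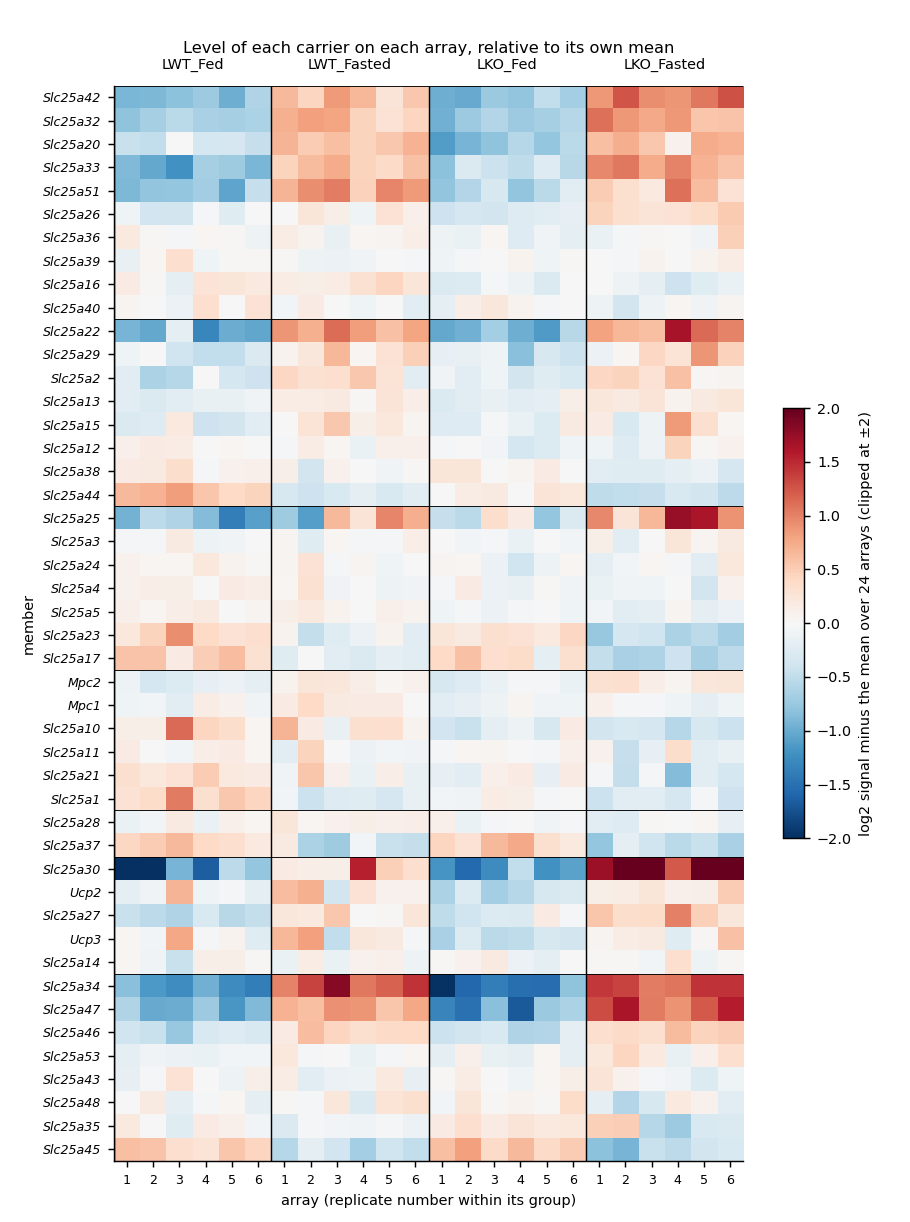
Log2 signal of 46 of the 47 tested carriers on each of the 24 arrays minus the carrier's own mean over all arrays (red above, blue below, clipped at 2 either way), with arrays by group and carriers by substrate group. The fasted columns are red for Slc25a42, Slc25a22, Slc25a30, Slc25a34 and Slc25a47 in both genotypes, and array 3 of LWT_Fed departs from its group in Slc25a1, Slc25a10, Ucp2 and Ucp3.

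All groups were on all 3 slides, with 2 arrays each. For the 23 members with a passing change over 1.5-fold, the 57 passing fasting and genotype differences, which were chosen on these same arrays, had the same sign within each slide. Other probes of the members numbered 45. Of 27 such probes of members that passed with fasting in LWT, 23 also passed in the same direction, in LKO 26 of 30, between genotypes 3 of 5 in fed and 5 of 11 in fasted mice, and for the interaction 1 of 2. In each of the 5 comparisons 0 of these probes passed in the opposite direction.

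Some members are neighbours in the genome. In the RefSeq table, 3 pairs of members lie side by side with no other protein-coding gene between: Slc25a29 and Slc25a47 on chromosome 12, Ucp2 and Ucp3 on chromosome 7, and Slc25a5 and Slc25a43 on chromosome X. Slc25a29 and Slc25a47 both rose with fasting in each genotype (0.62 and 1.64 in LWT, 0.67 and 2.43 in LKO), whereas the genotype difference in fasted mice was 0.02 for the first and 0.53 for the second. Ucp2 and Ucp3 shared both their rise in LKO and their lower level in fed LKO. Neither Slc25a5 nor Slc25a43 passed with fasting.

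The enzymes and regulators that work with these carriers moved as follows. Beside them, 19.9% of all genes rose and 21.7% fell with fasting in LWT, and 19.6% and 21.9% in LKO. In fed LKO 8.81% of all genes were higher and 7.60% lower, and in fasted LKO 10.0% and 10.6%. A positive interaction passed for 4.12% of all genes and a negative one for 3.87%. Of 12 genes of the carnitine shuttle and beta-oxidation, 11 rose with fasting in LWT and 12 in LKO, with median log2 fold changes of 0.88 and 1.24, and 8 had a passing positive interaction. Cpt1a, which makes the acylcarnitines that Slc25a20 carries, rose by 1.27 and 1.65, with an interaction of 0.38 (adjusted p = 0.036). Cpt2, which acts on these acylcarnitines in the matrix, rose by 0.78 and 1.14, with an interaction of 0.36 (adjusted p = 0.0387). The interaction of Slc25a20 (0.46) had the same sign. In fed LKO, where Slc25a20 was lower, 0 of these 12 enzymes passed by limma and 3 were lower at an unadjusted p under 0.05, and in fasted LKO 7 were higher.

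Of 8 genes of citrate and cytosolic acetyl-CoA, 7 fell in LWT and 5 in LKO, and 5 were lower in fed LKO. Acly, which splits the citrate that Slc25a1 exports, fell by -3.01 in LWT and -2.44 in LKO and was lower in fed LKO by -0.91 (adjusted p = 0.000337). Fasn, the fatty acid synthase, fell by -3.94 and -2.94 and was lower in fed LKO by -1.03 (adjusted p = 9.74e-05). Slc25a1 (-0.65, -0.28 and -0.39) moved in the same direction in the same 3 comparisons, by less. The interaction passed for Fasn (1.004, adjusted p = 0.00553) and not for Slc25a1.

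Of 10 enzymes around mitochondrial pyruvate, 3 rose and 3 fell in LWT and 3 rose and 2 fell in LKO. Pdk4, a kinase that inactivates pyruvate dehydrogenase, rose by 2.63 and 4.32, with an interaction of 1.70 (adjusted p = 0.0423), and Pcx, pyruvate carboxylase, rose by 0.44 and 0.48, beside 0.29 and 0.38 for Mpc2. Pdhb and Dlat, subunits of the pyruvate dehydrogenase complex, were lower in fed LKO by -0.33 each (adjusted p = 0.00237 and 0.00168). Of 8 genes of the urea cycle, 3 rose and 1 fell with fasting in LWT, 1 rose and 2 fell in LKO, and 2 were lower in fasted LKO than in fasted LWT. In the malate-aspartate and glycerophosphate shuttles, 1 of 6 genes rose and 1 fell in LWT, 3 rose and 1 fell in LKO, and 1 was higher and 3 were lower in fed LKO. Got1, the cytosolic aspartate aminotransferase that works with Slc25a13, rose by 2.02 and 1.61.

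The outer membrane pores, through which metabolites reach the carriers, were nearly flat: of Vdac1, Vdac2 and Vdac3 only Vdac1 passed, at -0.18 in LWT, -0.31 in LKO and -0.20 between genotypes in fasted mice. All 7 transcriptional regulators of mitochondrial genes rose with fasting in LWT and 6 in LKO. Ppara, a receptor of fatty acids that drives fasting genes, rose by 0.89 in LWT and 0.87 in LKO, and Ppargc1b, a coactivator, by 1.11 and 0.81. For the genotype in fed or fasted mice and for the interaction 0 of the 7 passed by limma, with 2, 1 and 0 at an unadjusted p under 0.05, and how they bear on the carriers was not tested.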

How the data were processed

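The authors hybridised Cy3-labelled liver RNA to single-colour Agilent SurePrint G3 mouse microarrays, 24 in all on 3 slides, each slide with 2 arrays of every group. The deposited scanner files (per the file headers, from Feature Extraction 10.10.1.1) give the intensity of each spot before scaling between arrays, and the median signal was used here. The authors' deposited table holds log2 values of 32595 probes that had been filtered, corrected for washing bath and quantile normalized, and served to choose members and as an alternative.

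Per array, 54.7% to 63.0% of spots stood well above background, and 0 were saturated. A probe was tested if at least 1 group had it well above background on 5 or more of its 6 arrays (32197 probes, 21372 genes named by the files). Their log2 median signals were quantile normalized, and group means, slide and array weights were fitted with limma 3.58.1 in R 4.3.3 (lmFit, arrayWeights, eBayes). Two-sided p-values of 5 contrasts were adjusted over all probes by Benjamini-Hochberg. The code was tested on simulated data. Members past the threshold with a change over 1.5-fold in any contrast are described by array, those past the adjusted p alone by value, and the rest by range; 1 tested member is counted but not otherwise reported here. Lists of carrier roles, partner genes and cell type markers were counted without a set test. Promoters and gene order came from RefSeq tables of GRCm38.p6, with Python 3.11.15. Members and lists were chosen with earlier results of these data known.

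Alternatives were the processed signal at the 75th percentile, normexp background correction (offset 50), the authors' log2 table, other filters on dim probes, no slide term, no array weights, only the groups compared, probes of a gene averaged, a replicate block, and leaving out each array.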

Additional observations from a re-analysis of the deposited data

Results flagged for a closer look

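In 25 of the 192 sets of 6 arrays examined (48 members in 4 groups), the highest or lowest array stood apart from the other 5 by Dixon's criterion, where chance gives about 1 in 20. The values are normalized log2 signals. Array 3 of LWT_Fed stood above the rest of its group in Slc25a1 (13.88), Slc25a10 (11.53), Slc25a15 (9.75), Slc25a20 (11.76), Slc25a22 (12.15), Slc25a23 (11.03), Ucp2 (9.38) and Ucp3 (9.14), and below it in Slc25a14 (8.88). Of the LWT_Fasted arrays, array 2 stood above the others in Slc25a4 (10.85), Slc25a11 (14.17), Slc25a17 (12.32) and Slc25a24 (7.25), array 4 above them in Slc25a30 (11.28), array 6 below them in Slc25a2 (6.48), array 1 below them in Slc25a35 (6.99) and array 3 below them in Slc25a36 (7.27). In LKO_Fed, array 6 was high for Slc25a13 (14.21), array 5 was low for Slc25a17 (12.14) and array 4 was low for Slc25a24 (6.56). In LKO_Fasted, array 4 was high for Slc25a14 (9.66) and low for Slc25a20 (11.84), and array 6 was high for Slc25a36 (7.88) and Ucp2 (9.21). Array 4 of LWT_Fed was high for Slc25a24 (7.17).

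The fasting change differed between the genotypes by the interaction term for Slc25a20 (0.46), Slc25a26 (0.43) and Slc25a47 (0.79), each of them larger in LKO. The call ended on leaving out any of 13 arrays for Slc25a20 and any of 15 for Slc25a47, and 1 of the other Slc25a26 probes gave -0.04 (adjusted p = 0.84).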

How the results depend on the processing

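The counts of members that passed were 27 and 29 with fasting in LWT and LKO, 9 and 12 for the genotype in fed and fasted mice, and 3 for the interaction. With a replicate block these were 25, 29, 8, 12 and 4; same-numbered arrays gave no sign of being paired (median correlation of their deviations -0.015 over 36 pairs, 8 of them over 0.1). Leaving out 1 array gave 4 to 12 members for the genotype in fed mice, the lowest without array 5 of LWT_Fed, and 1 to 5 for the interaction. Asking for a change over 1.5-fold gave 0 and 2 members for the genotype in fed and fasted mice and 1 for the interaction. The interaction gave 5 members on the authors' table, 5 with only probes well above background on all arrays, 5 without the slide term, 0 without a filter on dim probes and 1 without array weights. The cause of these shifts was not tested. Over all of these settings, 0 of the 60 passing results of the 23 members with a passing change over 1.5-fold changed direction. Leaving out each of the 24 arrays in turn gave 1440 repeats of these 60 calls, and 54 of the repeats did not pass. These losses gathered on few calls: 15 and 13 on the interactions of Slc25a47 and Slc25a20, and 6 on the fasted difference of Slc25a47. The fed differences of Ucp3, Ucp2 and Slc25a33 had 9, 7 and 3. Calls of members past the adjusted p alone are not in these counts. Leaving out arrays 1 and 2 of LKO_Fasted together ended 5 of the 60 calls. Slc25a20 and Slc25a47 lost their interaction call without a filter on dim probes (adjusted p = 0.111 and 0.073) and without array weights (0.113 and 0.0537), and Slc25a26 without the filter (0.0527). The fed differences of Ucp2 and Ucp3 ended without that filter (0.0638 and 0.0779), as did the fasted difference of Slc25a47 (0.0511), and the fed difference of Ucp3 also ended without array weights (0.0508) and without arrays 1 and 2 of LKO_Fasted (0.0571). Of the members, 18 rest on 1 probe.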

Other observations

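Markers of other cell types that whole liver can hold were counted beside the carriers. The shares of all genes that passed each comparison are those given with the enzymes above. Of 5 stellate cell markers, 1 rose and 2 fell with fasting in LWT and 1 rose and 3 fell in LKO, with Lrat at -0.90 and -0.96. Of 5 Kupffer cell markers, 0 passed in any of the 5 comparisons by limma, while at an unadjusted p under 0.05 the count was 2 lower with fasting in LWT, 1 lower in fed LKO, 1 higher in fasted LKO and 0 in the other comparisons. Of 5 endothelial markers 1 rose with fasting in LKO (Pecam1, 0.37) and 1 was lower in fed LKO (Lyve1, -0.88). Of 4 adipose markers measured, Cfd was lower in LKO by -2.76 in fed and -3.00 in fasted mice (adjusted p = 0.0123 and 0.008), and Lep was lower with fasting by -0.23 and -0.28. Of 4 lymphocyte markers, 1 fell in each genotype (Ms4a1 at -0.45 in LWT, Cd3e at -0.26 in LKO). Of 5 pericentral markers of the liver lobule, 2 fell with fasting in LWT (Cyp1a2, Lgr5), 1 rose (Axin2) and 2 fell in LKO, and 1 had a negative interaction (Cyp1a2, -1.07). Of 5 periportal markers, 2 rose (Sds, Hsd17b13) and 1 fell (Cdh1, -1.47) in LWT, 1 rose and 2 fell in LKO, and 2 had a negative interaction (Hal, -1.15, and Sds, -1.07). In fasted mice Cyp1a2 and Hal were lower in LKO by -0.79 and -0.87. The interactions of Axin2 (0.24), Cdh1 (0.16) and Hsd17b13 (0.02) were positive and did not pass. The part of these markers in the carriers' changes was not tested.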
